A study of Mus musculus with 10 samples.

Results

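The comparison described here is 4-hydroxytamoxifen (4-OHT) against its solvent in leukaemia cells whose Zfx gene is intact. Its members were chosen by their titles, which read Zfx wt MA9 cells with 4-OHT or with vehicle, and they are 4 of the 10 arrays of the series, 2 per treatment. The 4 arrays come from 2 lines, named 10977 and 10980 in the titles, and each line gave 1 vehicle array and 1 4-OHT array. Both lines are Zfx wt/y mouse acute myeloid leukaemias that carry the MLL-AF9 fusion (MA9) and Cre-ER, the recombinase fused to an oestrogen receptor domain. The cells had been isolated from moribund mice, each line being 1 primary leukaemia, and grew in RPMI medium, 20% of it serum. The cytokines added were SCF (20 ng/mL) together with IL-6 and IL-3 (10 ng/mL each). They were cultured for 72 h with 10 nM 4-OHT or with ethanol, and c-Kit+ cells were then sorted for RNA extraction. The other 6 arrays are 3 Zfx fl/y lines (10949, 10950 and 10986; here the fl lines) with the same fusion, Cre-ER and both treatments. A line is a primary leukaemia and not a clone of a common parent, so a difference between the lines joins genotype, animal and leukaemia.

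4-OHT is the active metabolite of tamoxifen and binds the oestrogen receptor. The receptor domain of Cre-ER is held by the Hsp90 chaperone in the cytoplasm until 4-OHT releases it, and Cre then enters the nucleus and recombines loxP sites. Cells without loxP sites show what the ligand and the nuclear recombinase do apart from deleting the target. Cre can cut loxP-like sequences in the genome, and DNA breaks of that kind are known to activate p53, whose target genes halt the cell cycle or induce cell death. MLL-AF9 leukaemia is a disease of myeloid progenitors, kept immature by HoxA and Meis1 transcription factors, which can ripen towards monocytes or granulocytes.

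The levels below are log2 of the deposited array signal, 1 probe set per gene, and a change is the 4-OHT level minus the vehicle level of the same line. Levels are compared between arrays only, since different probes do not share a scale. The test covered the 15662 genes with a mean level of at least 6.23, the 25th percentile of all probe sets. Arrays of the same wt line correlated at r = 0.995 in 10977 and 0.994 in 10980, and arrays of different wt lines at 0.987 to 0.992. Of the 4 pairs across lines, the 4-OHT pair correlated least (0.987) and the vehicle pair most (0.992). Line 10980 often had the opposite sign to line 10977 in its largest changes, as described below, and the mean of the wt lines is therefore given together with each line. Among the fl lines, the vehicle array of 10986 stood apart from all others, with a mean correlation of 0.961. Line 10986 contributes to the replicate spread used in the tests, so counts are also given without it.

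Markers of the labelled cells reached the level filter, and so did markers of mature myeloid cells. The filter is a percentile of the probe sets and not a call of presence. Some markers lay close to it, such as Flt3 (6.44 to 6.66), Ltf (6.23 to 6.60), Itgax (6.50 to 6.58) and Siglech (6.46 to 6.56). All 6 leukaemic progenitor markers were at or above the filter, and the 4 primary granule markers had means over the wt arrays between 13.2 and 14.1. All 8 measured monocyte and macrophage markers, all 9 late granulocyte markers, 5 of 6 mast cell and basophil markers, 4 of 4 dendritic markers and 4 of 5 erythroid and megakaryocyte markers reached the filter. Of the 6 measured B, T and natural killer genes 2 reached it, and of the 6 stroma and endothelium markers 4. Kit, the receptor used for the sort, stood at 8.48 and 8.64 in line 10977 and at 9.79 and 9.94 in line 10980, with vehicle first in each pair. Zfx was 10.12 with vehicle and 9.90 with 4-OHT in 10977, and 10.07 and 10.04 in 10980. The mean Zfx change was -0.12 (SE 0.19), smaller than its error. The probe set's position relative to the floxed exon is not known here, so the level is not a check of the allele.

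The question a control of this kind addresses is which genes respond to ligand and recombinase alone, and no gene passed the test for a response shared by the wt lines. With limma, the line as a block and Benjamini-Hochberg adjustment, 0 of 15662 genes were higher and 0 lower with 4-OHT (0% called in each direction), and the smallest adjusted p was 1. At an unadjusted p below 0.05 there were 13 genes higher and 10 lower. The same 0 and 0 came out without line 10986, where the median standard error of the log2 change fell from 0.144 to 0.101 and 146 genes higher and 319 lower had an unadjusted p below 0.05. If no gene changed, a share of about 0.05 of the genes would be expected below that cut. The counts, 23 of 15662 with all arrays and 465 without line 10986, were smaller than that share. The reason for the shortfall was not tested, and the 0 calls are therefore no measure of how little the wt lines changed. The p-values rest on 3 residual degrees of freedom, only 1 of which comes from the wt lines. A gene that missed the threshold is not shown to be unaffected.

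The genes with the smallest unadjusted p that went the same way in both lines had small differences. The 10 higher ones had log2 changes of 0.16 to 0.50 in line 10977 and 0.28 to 0.78 in line 10980, and the 10 lower ones -0.58 to -0.12 and -0.92 to -0.35. None of the 20 passed the limma test (adjusted p = 1 for each, unadjusted p 0.0171 to 0.0481). Both 4-OHT arrays lay above both vehicle arrays for 7 of the 10 higher genes, against 14.3% of all genes, and below them for 5 of the 10 lower genes, against 12.4% of all genes. These genes were picked by their p, so the counts are a description of the choice. Of the 10 higher genes, 3 were higher and 3 lower with 4-OHT in every fl line. Of the 10 lower genes, 3 were lower and 2 higher in every fl line.

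Fkbp5, a co-chaperone of the steroid receptor complex with Hsp90 and a known glucocorticoid target, was among the higher genes. Its levels in line 10977 were 9.09 with vehicle and 9.30 with 4-OHT, and in line 10980 9.15 and 9.59. Both 4-OHT arrays were above both vehicle arrays, and the mean change was 0.32 (SE 0.12, n = 2 lines, limma adjusted p = 1). In the 3 fl lines its changes were -0.06, 0.03 and 0.02. Pold1, the catalytic subunit of DNA polymerase delta, went from 9.25 to 9.41 in 10977 and from 9.38 to 9.83 in 10980. The 4-OHT array of each line was the higher one, and the change in the fl lines had the other sign, at -0.34, -0.28 and -0.42. Emilin1, an extracellular matrix glycoprotein, and Mrps12, a mitochondrial ribosomal protein, had the same arrangement, with mean wt changes of 0.27 (SE 0.11) and 0.31 (SE 0.12) and negative changes in all 3 fl lines. The remaining higher genes were DQ267102, Gml, Olfr1148, Olfr172, Slc35e3 and Snord104, of which the 2 olfactory receptor genes and Gml had levels of 6.02 to 8.40 in the wt arrays.

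Gpr84, a receptor for medium-chain fatty acids on myeloid cells, had the smallest unadjusted p of all 20 (0.0171). It stood at 11.21 with vehicle and 10.68 with 4-OHT in 10977, and at 9.70 and 9.25 in 10980. Each line was lower with 4-OHT, but the groups overlapped, because both arrays of 10980 were below both arrays of 10977. The mean change was -0.49 (SE 0.16; limma adjusted p = 1), and the fl changes were -0.40, -0.74 and -0.16. Samd9l, an interferon-induced growth suppressor, was 9.22 and 8.69 in 10977 and 8.92 and 8.33 in 10980, a mean change of -0.56 (SE 0.20). Both 4-OHT arrays of Samd9l lay below both vehicle arrays.

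Cd59a, which shields cells from complement, had the largest mean change of the 20, -0.75 (SE 0.28), with -0.58 in 10977 and -0.92 in 10980. Raet1d, a ligand of the killer cell receptor NKG2D, had wt changes of -0.34 and -0.82 and fl changes of 0.73, 0.53 and 1.32. The fl minus wt difference of Raet1d did not pass (limma adjusted p = 0.594), and the same held for all 20 genes (0.594 to 0.996). The others of the lower set were Kcnip3, Mgl2, Mir142, Mmd, Omg and Tshr, with mean changes between -0.42 and -0.33.

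**Figure D1:**
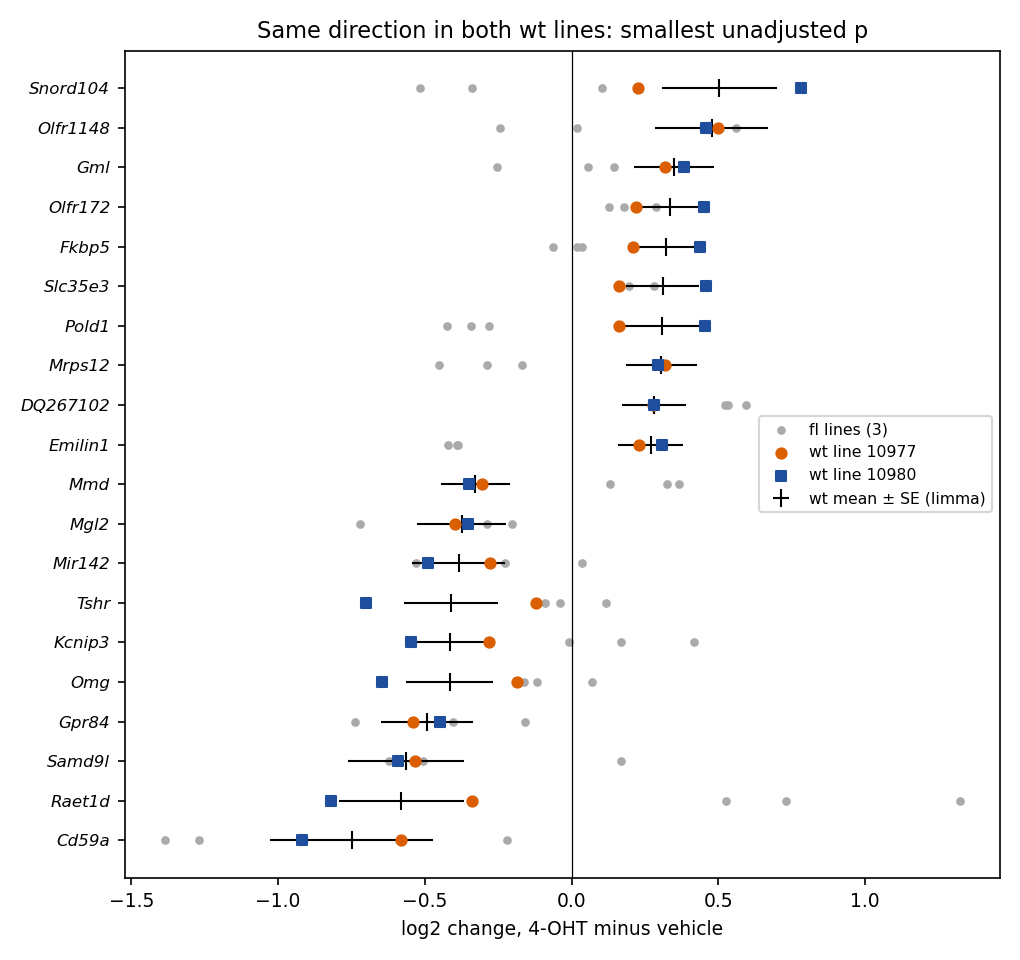
Log2 change, 4-OHT minus vehicle, of the 20 genes with the smallest unadjusted p that went one way in both wt lines (10 higher above, 10 lower below); circles and squares are the wt lines, grey dots the 3 fl lines, and the black mark is the wt mean with its limma standard error. The wt means lie between -0.75 and 0.50, and for Pold1, Mrps12, Emilin1, Mmd and Raet1d all 3 grey dots are on the other side of 0. For 3 of the higher and 3 of the lower genes all 3 grey dots are on the same side as the wt mean.

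Larger changes were seen within single lines, and they ran against each other. Past 2-fold, 5 genes were higher (0.0319% of all) and 9 lower (0.0575%) in line 10977, and 13 higher (0.083%) and 24 lower (0.153%) in line 10980. A 2-fold change in both lines occurred in 7 genes, and all 7 had opposite signs, 4 higher in 10977 and 3 higher in 10980. With a minimum log2 change of 0.5 in both lines, 25 genes were higher in 10977 and lower in 10980, 25 were the reverse, 0 were higher in both and 2 were lower in both. Over all 15662 genes the directions were spread almost evenly, with 26.5% higher in 10977 and lower in 10980, 24.8% the reverse, 24.3% higher in both and 24.5% lower in both. The correlation of the changes of both lines across genes was r = -0.22 (Spearman rho -0.08). Against the fl lines 10949, 10950 and 10986, r was 0.26, 0.43 and -0.32 for 10977 and -0.17, -0.16 and -0.39 for 10980. Line 10986 thus correlated below 0 with both wt lines, and with 10977 more strongly than 10980 did. Genes are not independent replicates, the arrays of a line enter every gene alike, and r was 0.03 with every probe set included.

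**Figure D2:**
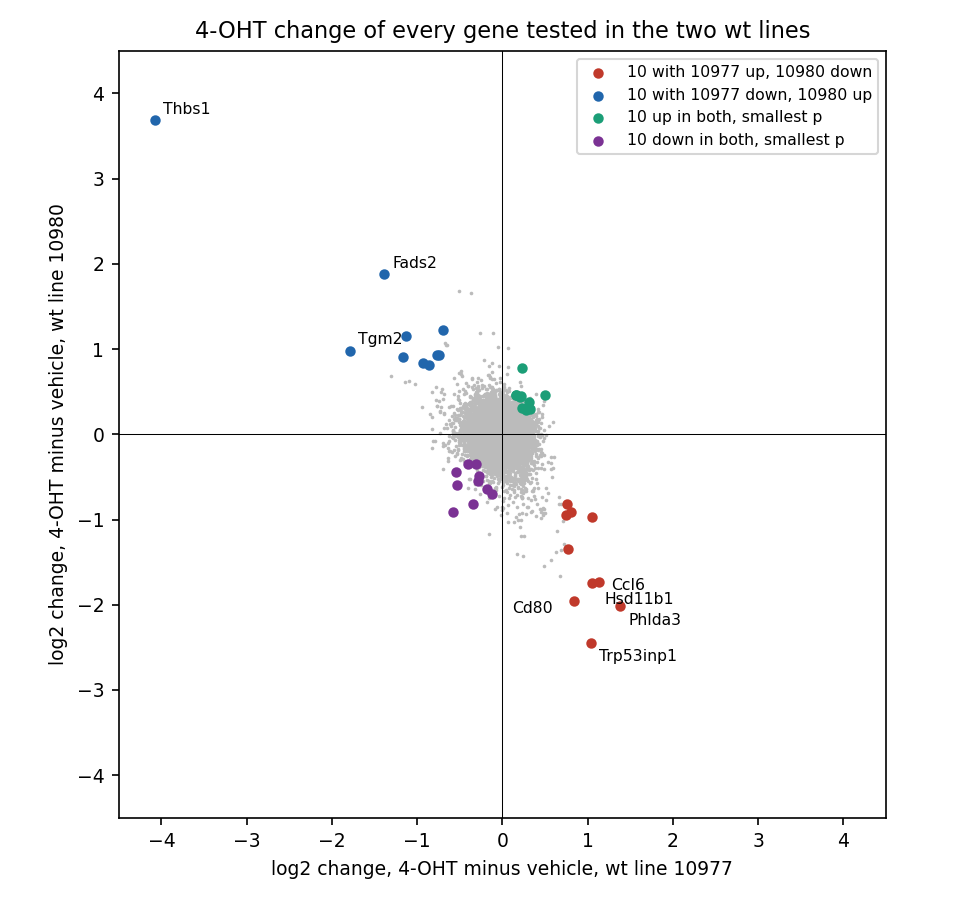
Log2 change with 4-OHT in line 10977 (x axis) against line 10980 (y axis) for the 15662 genes tested, each a grey point, with the 10 genes named in each direction pattern in colour. The points farthest from the centre lie at upper left and lower right, Thbs1 at -4.07 and 3.68, while the 20 coloured genes that share a sign stay within 1 log2 unit.

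Thbs1, which encodes the secreted matrix protein thrombospondin-1, an inhibitor of vessel growth, showed the largest difference between the lines. Its level went from 11.54 with vehicle to 7.47 with 4-OHT in line 10977, and from 7.66 to 11.34 in line 10980. The 4-OHT array of 10980 lay near the vehicle array of 10977, and the remaining pair of arrays lay near each other. The 3 fl lines ranged from 9.46 to 11.39 with vehicle and from 7.57 to 8.91 with 4-OHT, and all 3 were lower with 4-OHT. Each line was tested in a fit with a term of its own, which borrows its spread from the fl lines because a single pair has none. In that fit the change of 10977 minus that of 10980 was -7.76 (SE 0.38), and Thbs1 was the only gene to pass (limma adjusted p = 0.0312; 0.00638% of genes called lower, 0% higher, 170 genes at an unadjusted p below 0.05). In 6 of the alternative settings, 1 of them the fit without line 10950, the call was lost, with an adjusted p of 0.0564 to 0.903.

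Neither line alone had a gene past the threshold in that fit (0 higher and 0 lower in each; 49 genes in 10977 and 152 in 10980 at an unadjusted p below 0.05). These counts, and the 170 of the contrast, were also smaller than a share of 0.05 of the genes tested. Without line 10986, 17 genes were higher and 45 lower in 10977 (0.109% and 0.287%), and 49 higher and 125 lower in 10980 (0.313% and 0.798%). The contrast between the lines then had 95 genes higher and 75 lower (0.607% and 0.479%). With only 1 residual degree of freedom left, limma gave every gene the same standard error, 0.176 per line, so these calls rank genes by the size of their change alone. They are used below only as counts. Without line 10949, 0 genes were higher and 2 lower in 10977, 4 and 6 in 10980, and 6 and 3 in the contrast.

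Among the genes higher in 10977 and lower in 10980, Phlda3 and Trp53inp1 belonged to the p53 target list. Trp53inp1, a p53-induced regulator of cell death and autophagy, was 9.36 with vehicle and 10.40 with 4-OHT in 10977, and 10.95 and 8.50 in 10980. The 4-OHT array was the higher of the pair in 10977 and the lower in 10980, with log2 changes of 1.04 and -2.44. In the 3 fl lines Trp53inp1 was 8.41 to 8.77 with vehicle and 9.90 to 10.13 with 4-OHT, so that the vehicle array of 10980 was above every 4-OHT array of the fl lines. Phlda3, a p53 target that restrains Akt, was 7.89 and 9.27 in 10977 and 9.72 and 7.70 in 10980. Its changes were 1.38 and -2.02, and 0.37, 0.33 and 0.55 in the fl lines. The contrasts of the lines were 3.48 (SE 0.36) for Trp53inp1 and 3.40 (SE 0.28) for Phlda3, with adjusted p of 0.585 and 0.244.

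Of the 25 p53 target genes tested, 16 were higher in 10977 and lower in 10980 and 0 were the reverse, while 3 were higher in both and 6 lower in both. The median change was 0.15 in 10977 and -0.27 in 10980, against 0.00 in each line over all genes. In the fl lines the same medians were 0.13, 0.09 and 0.24. Mdm2, which targets p53 for degradation, had changes of 0.25 and -0.82, and Ccng1, cyclin G1, 0.23 and -0.74. Zmat3, an RNA-binding p53 target, had 0.71 and -1.02, Plk2, a polo-like kinase, 0.45 and -0.98, and Fas, the death receptor, 0.12 and -0.79. Gadd45a, a growth arrest gene, had 0.05 and 0.16, and the stress-induced sestrins Sesn2 and Sesn1 had 0.22 and 0.20, and -0.17 and -0.27. Without line 10986, 7 of the 25 passed the contrast between the lines in the direction of 10977 (0.607% of all genes) and 0 in the other (0.479%).

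Monocyte and granulocyte genes had the same arrangement. Of 27 monocyte and macrophage markers, 18 were higher in 10977 and lower in 10980 (2 the reverse, 4 higher in both, 3 lower in both), and the medians were 0.14 and -0.29. In the fl lines these medians were 0.60, 0.27 and 0.59. Cybb, the membrane subunit of the phagocyte oxidase, was 10.80 and 11.55 in 10977 and 10.67 and 9.72 in 10980. Lyz2, the lysozyme of macrophages and granulocytes, was 11.41 and 12.10 in 10977 and 11.91 and 11.09 in 10980. Both genes were higher with 4-OHT in all 3 fl lines as well, Cybb by 1.29 to 1.33 and Lyz2 by 1.33 to 3.16. Members with the reverse signs were F13a1, coagulation factor XIII, at -1.17 and 0.91, and Ccr2, a chemokine receptor, at -0.05 and 0.08.

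Of 23 late granulocyte genes, 16 were higher in 10977 and lower in 10980 and 4 were the reverse, with medians of 0.19 and -0.32. S100a8, a calcium-binding alarmin of neutrophils, was 10.87 and 11.15 in 10977 and 9.61 and 8.67 in 10980. Olfm4, a granule protein, was 11.01 and 11.21 in 10977 and 10.03 and 8.94 in 10980. For both genes every array of 10980 was below every array of 10977, and the pairs differed in direction. Primary granule genes, which are made earlier in maturation, had medians of 0.05 and -0.11 over 18 genes. In a bulk sample fewer cells of a type and less RNA per cell cannot be told apart, which holds for all these lists.

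The rest of the 10 named genes in this direction included secreted and surface proteins. Ccl6 and Ccl3, which are chemokines, had changes of 1.13 and -1.73, and of 0.77 and -1.35. Cd80, a costimulatory ligand, had 0.84 and -1.95, and a second probe set gave 0.43 and -0.92. Hsd11b1, which converts inactive glucocorticoid to its active form, went from 8.26 to 9.31 in 10977 and from 9.07 to 7.32 in 10980. The last 3 were Lilr4b, a leukocyte receptor, Tlr13, a sensor of bacterial RNA, and Stfa2, a protease inhibitor of neutrophils. Their changes were 0.76 to 1.05 in 10977 and -0.96 to -0.82 in 10980. All 10 genes were higher with 4-OHT in all 3 fl lines, with changes of 0.19 to 2.44. No share over all genes stands beside this count, which only describes the genes named. The changes of the fl lines correlated with each other at r = 0.07 to 0.55.

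**Figure D3:**
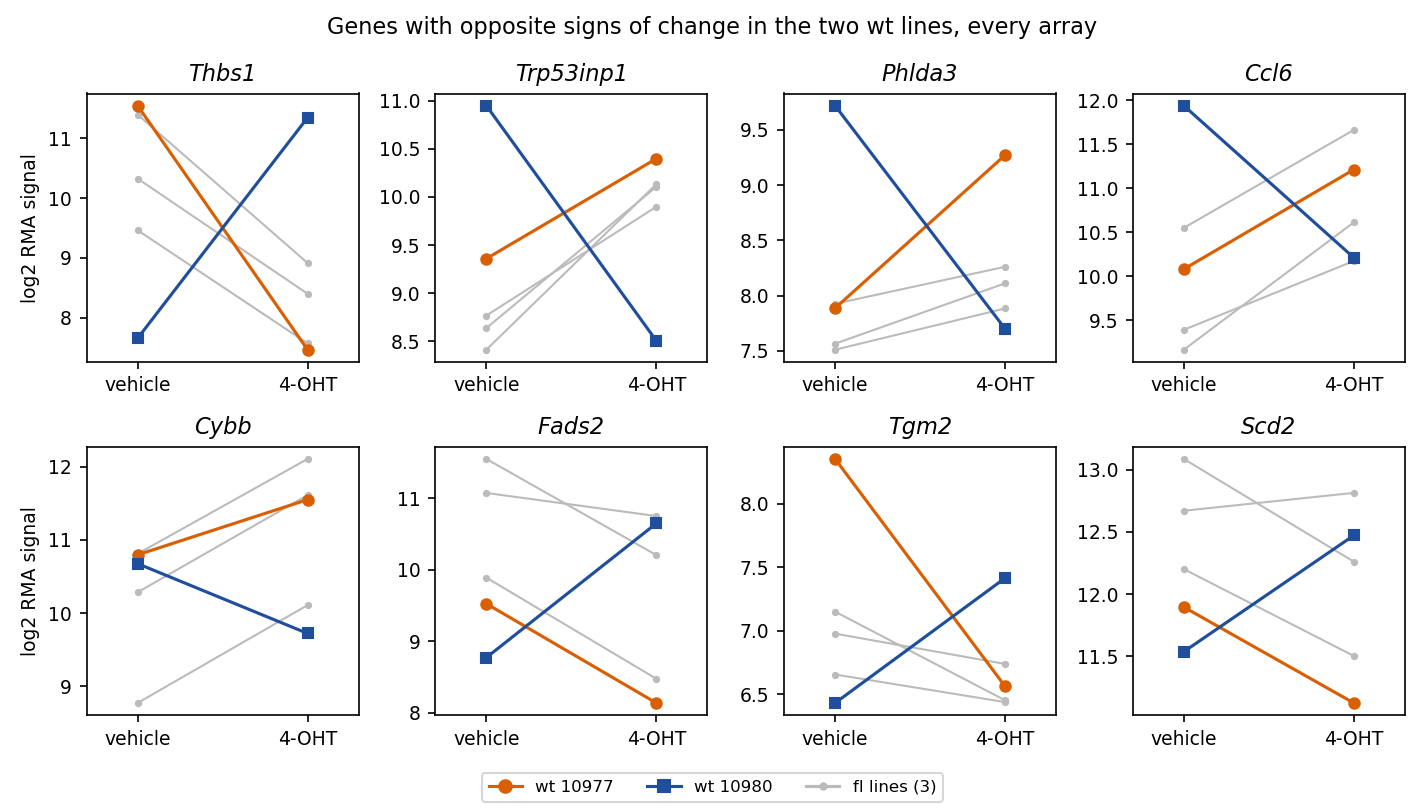
Log2 signal of 8 genes in every array with vehicle (left) and 4-OHT (right), a line joining the arrays of a cell line; orange circles are wt line 10977, blue squares wt line 10980 and grey dots the fl lines. For Thbs1 the orange line goes from 11.54 to 7.47 and the blue line from 7.66 to 11.34, and in each panel the orange and blue slopes have opposite signs.

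The genes lower in 10977 and higher in 10980 included, besides Thbs1, 3 enzymes of lipid and amino acid metabolism (Fads2, Scd2 and Gpt2) and 6 genes of other functions. Fads2, the delta-6 desaturase of polyunsaturated fatty acids, was 9.52 with vehicle and 8.13 with 4-OHT in 10977, and 8.77 and 10.65 in 10980. Scd2, a stearoyl-CoA desaturase, was 11.90 and 11.13 in 10977 and 11.54 and 12.47 in 10980. In both genes the highest wt array was the 4-OHT array of 10980 and the lowest the 4-OHT array of 10977. Gpt2, the mitochondrial alanine transaminase, had changes of -0.69 and 1.23, and Tgm2, a transglutaminase, -1.79 and 0.98. Tex2, F13a1, Adgrl4, P2rx3 and Gpr141b completed the 10, of which 6 were lower with 4-OHT in all 3 fl lines. This count too has no share over all genes beside it. Apart from Thbs1, no contrast of the 20 named genes passed (limma adjusted p 0.244 to 1).

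Cholesterol synthesis had the most one-sided pattern of the lists examined. Sterol synthesis genes are switched on together by SREBP transcription factors when the membranes run short of cholesterol, and SREBP binds beside the factor NF-Y, which reads the motif CCAAT. Of 25 sterol and SREBP genes tested, 21 were lower in 10977 and higher in 10980, 0 were the reverse, 2 were higher in both and 2 lower in both. The medians were -0.32 and 0.34. The fl lines did not share 1 direction, with medians of -0.33 in 10949, 0.03 in 10950 and -0.10 in 10986. Without line 10986, 8 of the 25 passed the contrast in the direction of 10980 (0.479% of all genes) and 0 in the other (0.607%).

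The promoters of 4 of these genes are shown. The 4-OHT changes of these 4 differed between the lines by about 1 log2 unit or more, and they were picked for holding the motif that NF-Y reads. Each sequence is the 250 bases before the transcript start in RefSeq (build GRCm38.p6), written along the strand of the gene, with CCAAT or its reverse complement, and in Hmgcs1 also the SREBP motif TCACNCCAC, in capitals.
Hmgcs1 (chr13:119690101-119690350, plus strand): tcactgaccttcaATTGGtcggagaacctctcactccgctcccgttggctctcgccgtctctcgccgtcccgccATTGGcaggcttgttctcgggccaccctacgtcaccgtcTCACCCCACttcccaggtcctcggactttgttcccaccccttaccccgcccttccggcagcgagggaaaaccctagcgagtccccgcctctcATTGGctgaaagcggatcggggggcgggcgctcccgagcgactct
Lss (chr10:76531355-76531604, plus strand): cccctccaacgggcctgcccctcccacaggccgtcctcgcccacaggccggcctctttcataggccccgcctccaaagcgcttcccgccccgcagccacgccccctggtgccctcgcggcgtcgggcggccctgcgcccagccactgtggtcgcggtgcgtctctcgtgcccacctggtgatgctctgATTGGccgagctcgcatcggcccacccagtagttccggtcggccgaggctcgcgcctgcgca
Cyp51 (chr5:4104698-4104947, minus strand): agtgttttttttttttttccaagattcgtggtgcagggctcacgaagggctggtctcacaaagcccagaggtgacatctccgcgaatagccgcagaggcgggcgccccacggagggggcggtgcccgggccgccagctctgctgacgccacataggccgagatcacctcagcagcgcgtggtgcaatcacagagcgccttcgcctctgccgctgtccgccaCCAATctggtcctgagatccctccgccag
Insig1 (chr5:28071162-28071411, plus strand): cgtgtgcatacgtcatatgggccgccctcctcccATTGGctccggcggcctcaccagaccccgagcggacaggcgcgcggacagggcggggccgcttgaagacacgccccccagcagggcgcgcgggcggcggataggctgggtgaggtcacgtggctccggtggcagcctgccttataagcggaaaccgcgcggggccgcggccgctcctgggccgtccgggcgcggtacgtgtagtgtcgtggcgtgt
CCAAT on either strand was in a window of 18 of the 20 sterol genes with an entry, and in 19 of their 25 windows (76%), against 34.3% of the windows of all tested genes. TCACNCCAC, on either strand, was in 1 of the 20 genes and in 1 of their 25 windows (4%), against 1.03% of the windows of all tested genes. The shares over all tested genes are by window, and none is given by gene. A match is a description of the letters and not evidence of binding, and the windows stop at the start of the transcript.

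Hmgcs1, which makes HMG-CoA for the pathway, was 9.61 with vehicle and 9.14 with 4-OHT in 10977, and 9.13 and 9.82 in 10980. Lss, lanosterol synthase, was 9.02 and 8.46 in 10977 and 8.73 and 9.39 in 10980. Cyp51, which demethylates lanosterol, was 8.81 and 7.99 in 10977 and 8.01 and 8.51 in 10980. In all 3 the 4-OHT array was the lower one in 10977 and the higher one in 10980, and it was the highest of the 4 wt arrays for Hmgcs1 and Lss. Insig1, which retains SREBP in the endoplasmic reticulum when sterols are plentiful, had changes of -0.46 and 0.53. Fdft1, which makes squalene, had -0.77 and 0.34, and Msmo1, a sterol methyl oxidase, -0.61 and 0.33. The members outside the pattern were Pmvk at 0.11 and 0.11, Acly at 0.05 and 0.45, Ebp at -0.12 and -0.12, and Tm7sf2 at -0.44 and -0.05.

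Other metabolic and growth genes were lower in 10977 and higher in 10980. In the integrated stress response, which raises amino acid synthesis and transport through Atf4, 14 of 23 genes had that pattern, 2 the reverse, 7 were higher in both and 0 lower in both, with medians of -0.08 and 0.25. Cth, the enzyme that makes cysteine from cystathionine, was 10.62 and 9.95 in 10977 and 10.50 and 11.58 in 10980. Mthfd2, of mitochondrial folate metabolism, had changes of -0.36 and 0.66, and Asns, asparagine synthetase, -0.26 and 0.35. Of 22 glycolysis and hypoxia genes, 16 had the pattern and 2 the reverse, with medians of -0.16 and 0.25. Bnip3, a mitophagy receptor induced by hypoxia, had changes of -1.02 and 0.60, and -0.65 and 0.61 by its second probe set. Vegfa, the vascular growth factor, had -0.52 and 0.45, and in the fl lines -1.13, -0.96 and -1.44.

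Cell division genes had small differences in the same sense. Of 26 mitosis genes, 19 were lower in 10977 and higher in 10980 and 1 was the reverse, with medians of -0.23 and 0.09. Cenpe, a kinetochore motor, had changes of -0.50 and 0.22, and Plk1, a mitotic kinase, -0.28 and 0.42. Over 11 histone genes the medians were -0.28 and 0.09, and over 24 DNA damage and repair genes -0.15 and 0.07, with 14 of the 24 lower in 10977 and higher in 10980. S phase genes showed no such split, with medians of -0.05 and -0.02 and 5 and 4 of 27 genes in the opposite patterns. Myc, a transcription factor that drives growth, had changes of -0.12 and 0.54, and of 23 MYC and ribosome genes 14 had the pattern and 0 the reverse (medians -0.07 and 0.16). None of the mitosis, repair or MYC genes passed the contrast between the lines, with or without line 10986.

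**Figure D4:**
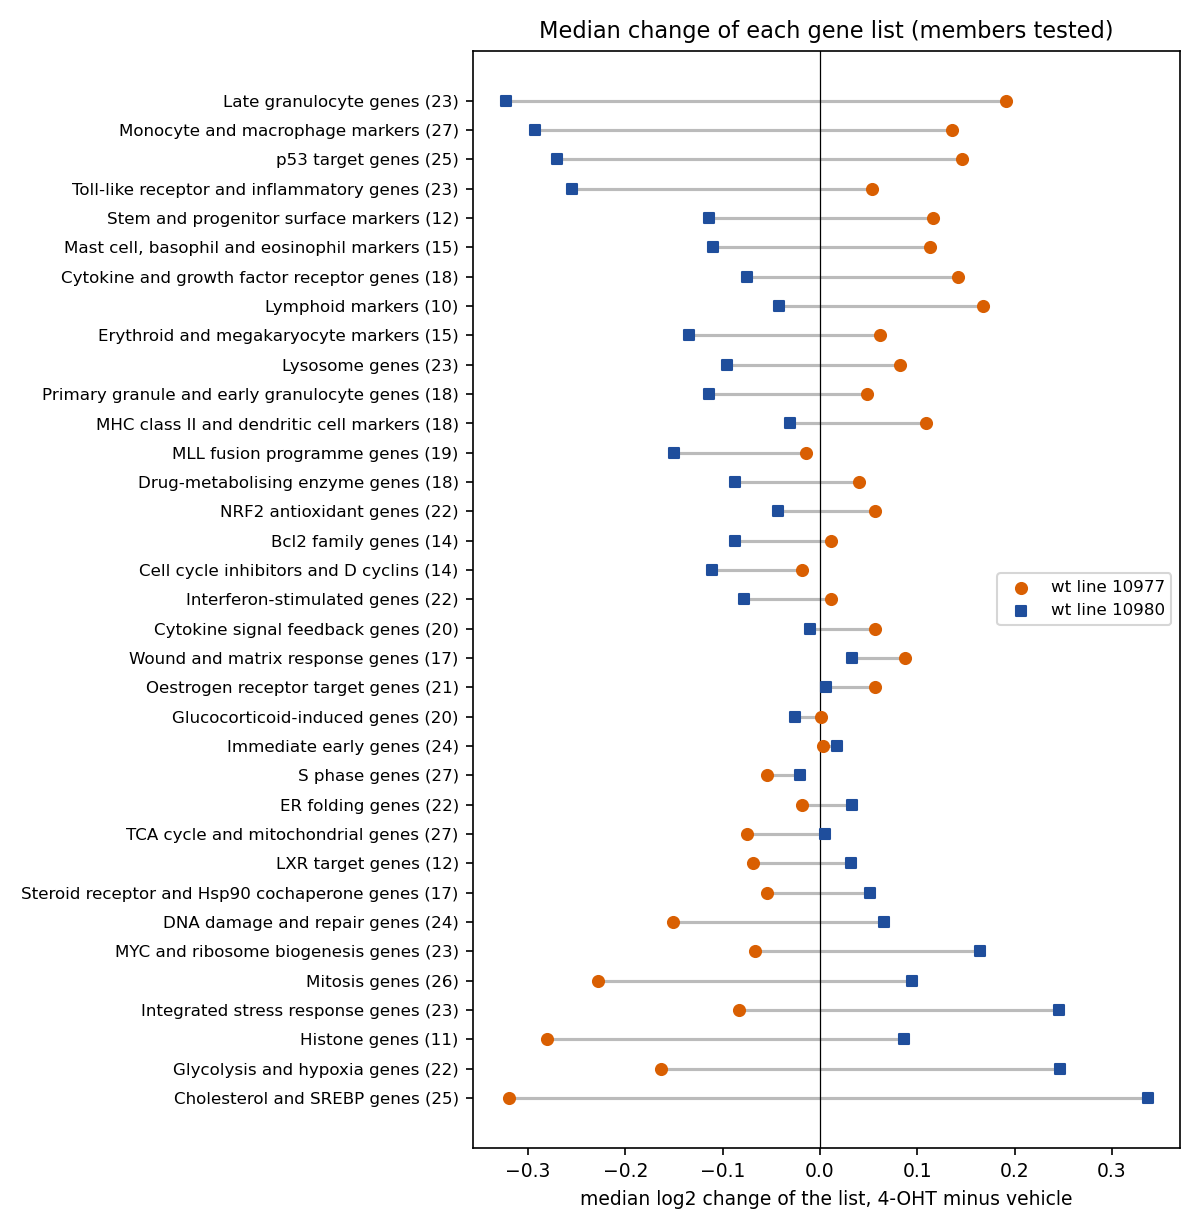
Median log2 change of each gene list in wt line 10977 (orange circles) and wt line 10980 (blue squares), for lists with at least 5 members tested, the number tested in brackets; the median of all genes is 0.00 in both lines. The widest gaps are at the ends, with cholesterol genes at -0.32 and 0.34 and late granulocyte genes at 0.19 and -0.32, and the hormone receptor lists lie near 0.

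Genes tied to the ligand had medians near 0 in both lines. The 21 oestrogen receptor targets tested had medians of 0.06 and 0.01, with 8 higher in both lines and 0 lower in both, and 0 passed the test for the shared wt effect. Greb1 and Pgr, classical targets of the receptor, stayed between 6.21 and 6.39 in the 4 arrays, near the level filter. Esr1, the receptor, was 8.16 and 8.35 in 10977 and 8.15 and 8.15 in 10980. The 17 steroid receptor and Hsp90 cochaperone genes had medians of -0.05 and 0.05, and the 20 glucocorticoid-induced genes 0.00 and -0.03. The 18 drug-metabolising genes had 0.04 and -0.09, and Cyp1a1 and Cyp1b1, which the aryl hydrocarbon receptor induces, lay between 6.11 and 6.42. Of the lists not tied to the ligand, the 22 interferon-stimulated genes had medians of 0.01 and -0.08, and the 22 endoplasmic reticulum folding genes -0.02 and 0.03.

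The leukaemic programme had small median differences. Over 19 genes of the MLL fusion programme the medians were -0.01 in 10977 and -0.15 in 10980. Every HoxA gene tested in the list was lower with 4-OHT in 10980, from -0.57 (Hoxa5) and -0.52 (Hoxa6) to -0.15 (Hoxa10). In 10977 the HoxA changes had both signs, from -0.28 (Hoxa3) to 0.15 (Hoxa10). The same genes were also lower with 4-OHT in fl lines 10949 (-0.96 to -0.01) and 10950 (-0.70 to -0.02). In fl line 10986 they had both signs (-0.06 to 0.16). Myc, also in the list, had -0.12 in 10977 and 0.54 in 10980. Hoxa9 was 11.70 and 11.82 in 10977 and 11.06 and 10.88 in 10980, and Meis1 11.69 and 11.69, and 11.47 and 11.25. The remaining lists with at least 5 members tested had medians between -0.07 and 0.17 in line 10977 and, apart from the Toll-like receptor and inflammatory genes at -0.26, between -0.13 and 0.03 in line 10980. Among them were lysosome genes (0.08 and -0.10), NRF2 antioxidant genes (0.06 and -0.04), cytokine receptor genes (0.14 and -0.08), immediate early genes (0.00 and 0.02) and Bcl2 family genes (0.01 and -0.09). Jun, an immediate early transcription factor, had -0.26 and 1.19, and -1.34, -0.69 and -1.86 in the fl lines.

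The direction in line 10980 was also set against the genes that the remaining 4 lines had in common. With a minimum log2 change of 0.3 in the same direction in line 10977 and all 3 fl lines, a value chosen after the data were seen, 50 genes were higher with 4-OHT and 38 lower. In line 10980, 45 of the 50 were lower, with a median change of -0.66, and 36 of the 38 were higher, with a median of 0.36. That is 81 of 88 genes in the other direction, where 50.9% of all genes were lower in 10980. Leaving out line 10977 in place of 10980 left 5 genes in common, leaving out 10986 left 5, and leaving out 10949 or 10950 left 0. Over all genes, the change of 10980 correlated below 0 with that of every other line, which held for no other line. The values of r were -0.22 with 10977 and -0.17, -0.16 and -0.39 with 10949, 10950 and 10986. On the first principal component the lines were not divided in that way. The first principal component moved with 4-OHT by 10.6 in 10977, 7.12 in 10980, 4.89 in 10949, 8.42 in 10950 and -50.9 in 10986, so that line 10986 had the opposite sign. The second moved by 2.10 in 10977, -7.18 in 10980 and 17.1 to 33.5 in the fl lines, so that there line 10980 had the opposite sign.

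The 88 genes included Trp53inp1, Phlda3, Lyz2, Mmp8, Fads2, Lss, Vegfa and a group of histone genes. Mmp8, the neutrophil collagenase, had changes of 0.53 in 10977, 2.18 to 2.75 in the fl lines and -0.32 in 10980. H3c15, a replication-dependent histone gene named here after its values were seen, had -0.65, -2.11 to -1.35 and 1.05. The levels of line 10980 were also set beside the means of the other lines. For 40 of the 88 genes the vehicle array of 10980 was nearer the mean of the other lines' 4-OHT arrays than that of their vehicle arrays, and for 74 the 4-OHT array was nearer the vehicle mean. Both held for 26 genes, and neither for 0. A gene that moved the other way in 10980 must meet at least 1 of these, so the 0 was fixed beforehand for 81 of the 88. No share over all genes stands beside these counts. Whether a treatment label or the cells account for the direction of line 10980 was not tested, and the labels are used as deposited.

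The wt lines also differed from each other whatever the treatment. Line 10980 was more than 2-fold above line 10977 under both treatments for 39 genes (0.249% of all) and more than 2-fold below it for 23 (0.147%). With vehicle alone the counts were 69 and 40, and with 4-OHT alone 85 and 94. Epha7, an ephrin receptor, was 7.84 and 7.62 in 10977 and 4.16 higher with vehicle and 4.43 higher with 4-OHT in 10980, and Adgrg7, an adhesion receptor, 6.20 and 6.20 against 10.16 and 10.05. Ugt8a, which makes galactosylceramide, was 6.79 and 6.90 against 10.62 and 10.49. These 3 genes separated the lines without overlap and by more than any 4-OHT change but that of Thbs1. Tshz1, Otx1, Hdc, Pnpla8 and Mc5r completed the 8 highest.

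The 8 lowest in 10980 were Stfa2, Hoxa6, Sh2d1b1, Prss57, Gm12863, Ngp, Gpr84 and Ly86. Hoxa6, a transcription factor of the HoxA cluster, was 10.41 and 10.39 in 10977 and 8.88 and 8.37 in 10980, and Hoxa5 was 10.13 and 10.08 against 8.84 and 8.28. Ngp, a granule protein, had differences, 10980 minus 10977, of -1.43 with vehicle and -2.32 with 4-OHT. Every array of 10980 was below every array of 10977 for these 3. Late granulocyte genes as a list were lower in 10980, with a median difference of -0.45 with vehicle and -0.83 with 4-OHT. Cd34, the progenitor antigen, ran the other way, at 8.41 and 8.99 in 10977 and 10.94 and 10.44 in 10980. No test was made of these differences, since the line has no replicate under a treatment.

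**Figure D5:**
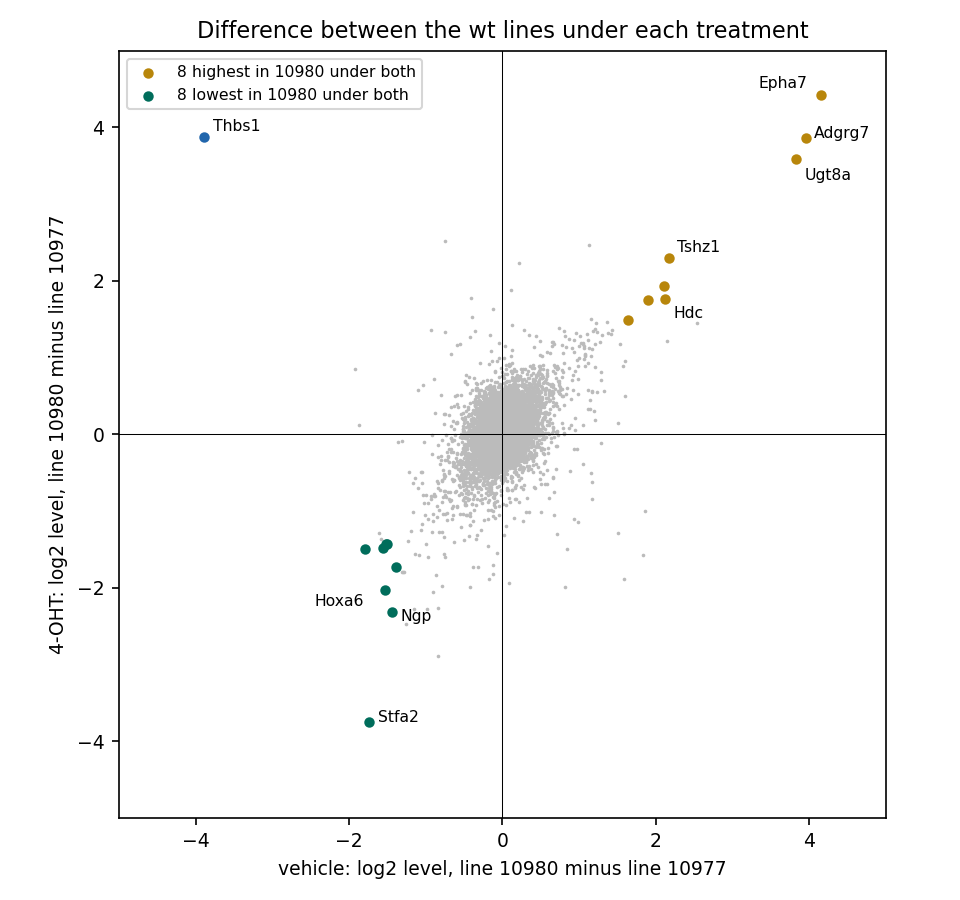
Level in wt line 10980 minus wt line 10977 (log2) with vehicle on the x axis and with 4-OHT on the y axis, for the 15662 genes tested. Genes near the rising diagonal differ between the lines under both treatments, such as Epha7, Adgrg7 and Ugt8a at upper right and Stfa2 at lower left, and Thbs1 lies alone at upper left because its difference turns sign with treatment.

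The difference between the 4-OHT change of the fl lines and that of the wt lines asks which changes need the floxed allele. In this comparison, which uses the wt lines as the reference, 0 genes were higher and 0 lower (limma, smallest adjusted p 0.198; 912 genes at an unadjusted p below 0.05). Without line 10986, 5 genes were higher in fl (0.0319%) and 15 lower (0.0958%), and with array weights over all 10 arrays 170 were higher and 189 lower. Ptpmt1, a mitochondrial phosphatase, had wt changes of -0.08 and -0.23 beside fl changes of -1.48, -0.98 and -0.44, and Idh2, the mitochondrial isocitrate dehydrogenase, -0.06 and 0.52 beside -0.84, -0.81 and -1.17. The spread of changes over genes was smaller in the wt lines, with an SD of 0.174 in 10977 and 0.188 in 10980, than in the fl lines, where it was 0.255, 0.263 and 0.497. Past 2-fold, the fl lines had 67 (0.428%), 26 (0.166%) and 950 (6.07%) genes higher and 48 (0.306%), 58 (0.37%) and 54 (0.345%) lower, against 5 and 13 higher and 9 and 24 lower in the wt lines.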

How the data were processed

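RNA from 10 samples was hybridised to 1-colour MoGene 1.0 ST arrays. The authors deposited linear intensity values normalized with RMA, per the submitters' processing notes; no software or setting for RMA is named there. RMA brings the arrays towards 1 distribution, so a global shift could be hidden. The deposited arrays still differed, with median signals from 145 (wt 4-OHT, 10980) to 158 (fl vehicle, 10986). Their log2 interquartile ranges ran from 2.67 (fl vehicle, 10986) to 3.05 (wt vehicle, 10977). Values were taken as log2. Of 35556 probe sets, 21789 had 1 gene symbol, 1621 several and 12146 were not listed; 21698 matched RefSeq (GRCm38.p6) by Entrez ID. The brightest probe set stood for a gene.

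Changes were tested with limma 3.58.1 (R 4.3.3, statmod 1.5.0, threshold 0.05) over all 10 arrays with the line number as a block, since arrays of a number are 1 leukaemia. Deviations of same-numbered arrays correlated at 0.427 in the wt lines and at 0.78, 0.22 and -0.06 in the fl lines. The wt value is a single one, since the deviations of 2 lines from their mean mirror each other. A second fit gave each wt line its own term and assumed that a lone line varies like the fl lines. Named genes were, in each direction, the 10 with the smallest p and 1 sign in both lines, the 10 with the largest smaller change among opposite signs, the 8 with the largest smaller line difference, and the largest in each list. Other members of the 37 lists were named as examples after their values were seen. The members and the lists were chosen with earlier results of these data known. Scripts were tested on simulated data.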

Additional observations from a re-analysis of the deposited data

Results flagged for a closer look

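The change of Thbs1 with 4-OHT differed between the wt lines by a test of the difference: 10977 minus 10980 was -7.76 log2 units, with -4.07 in 10977 and 3.68 in 10980 (limma adjusted p = 0.0312). Each wt line is a single pair of arrays and the spread in that test comes from the fl lines alone. The call was lost in 6 alternative settings, with an adjusted p of up to 0.903, and the direction in line 10980 rests on its treatment labels as deposited. No other gene met that test, and groups of 2 arrays are too small for a test of single arrays.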

How the results depend on the processing

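The wt mean had 0 genes higher and 0 lower in every alternative that could be fitted. Without the replicate block it had 0 and 0 (fl minus wt 0 higher and 1 lower), and with the line as a random replicate block 0 and 0 (fl minus wt 0 and 1). The fit without the block and without the 10986 vehicle array gave 1 gene lower for fl minus wt. Array weights gave 170 higher and 189 lower for fl minus wt, and leaving out 1 line at a time gave 0 to 5 and 0 to 15. For line 10977 the leave-one-out counts were 0 to 17 higher and 0 to 45 lower, for line 10980 0 to 49 and 0 to 125, and for 10977 minus 10980 0 to 95 and 0 to 75. The highest count was without line 10986 each time. The contrast had 0 genes lower with no level filter, with a filter at the 50th percentile, with all probe sets, with arrays centred on their median and with quantile normalization. The cause of these shifts was not tested.

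With all probe sets, 9 were higher and 52 lower past 2-fold in line 10977, 24 and 74 in line 10980, and 117 were lower in 10980 than in 10977 under both treatments; more features were counted there. With a log2 change of at least 0.6 the counts were 20 and 59, and 51 and 127. The correlation of the wt lines turned to 0.0251 (rho 0.0421) with all probe sets. Without 1 wt line the mean is the change of the line left, so Thbs1 ranged from -4.07 to 3.68, Trp53inp1 from -2.44 to 1.04 and Idh2 from -0.0583 to 0.518. All 222 recomputed list medians stayed within 0.1. The number of arrays limits the precision, and genes near the filter have compressed changes.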
